A study of Mus musculus with 4 samples.

Results

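The genes of arginine metabolism were examined on arrays of BALF cells, the cells that lung lavage brings up, from bleomycin-administered wild-type and S1pr2-/- mice. The members were 10 genes: the transporters Slc7a1 and Slc7a2, the arginases Arg1 and Arg2, the nitric oxide synthase Nos2, the cofactor enzyme Gch1, the citrulline-recycling enzymes Ass1 and Asl, and the ornithine-consuming enzymes Odc1 and Oat. They were chosen by symbol: every non-control probe whose accession maps to a member was taken, which gave 14 of 39429 probes, for 10 of 20832 gene symbols with a probe. Arg1, Arg2, Nos2, Asl, Slc7a1, Slc7a2 and Oat had 1 probe each, Gch1 and Ass1 had 2, and Odc1 had 3.

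Each array held Cy3-labeled RNA of one sample, with 2 arrays from wild-type mice and 2 from mice labelled S1pr2-/-, a label for mice with a targeted disruption of the gene for the sphingosine-1-phosphate receptor S1PR2. Both genotypes were given bleomycin, a drug that damages the lung and causes fibrosis, by intraperitoneal injection at 0.035 U/g 2 times a week, and cells were taken on day 22. Per the methods, the mice were young adults of a mixed background, crossed back once to C57BL/6J, with wild-type littermates as controls. No array of saline-administered mice was analysed here, so nothing below measures what bleomycin itself did. The records count 2 independent experiments but do not say whether an array held the cells of 1 mouse or of several, so the spread between arrays may be partly technical. The labels call the cells alveolar macrophages. The markers of that cell type were bright, with 10 of 10 well above background on all 4 arrays and a summed signal between 569 and 611 times an array's 75th percentile. Most markers of eosinophils, neutrophils, T cells and epithelium were also well above background, so the values belong to the mixture.

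Macrophages take up arginine through the cationic amino acid transporters and send it along competing routes. Arginase splits it into ornithine and urea, and ornithine feeds the polyamines through ornithine decarboxylase or proline, a building block of collagen, through ornithine aminotransferase. The inducible nitric oxide synthase instead turns arginine into nitric oxide and citrulline with tetrahydrobiopterin as cofactor, and citrulline can be rebuilt into arginine. High Arg1 is a textbook trait of mouse macrophages exposed to IL-4 or IL-13, and high Nos2 of those exposed to interferon-gamma and bacterial products.

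All values below are on a log2 scale, the processed signal divided by its array's 75th percentile, so that 0 means as bright as that percentile. Differences are the arrays labelled S1pr2-/- minus wild-type, fitted by limma to 27158 probes, those well above background on the 2 arrays of either genotype or of both. An exact permutation test over 2 against 2 arrays cannot give a p below 0.333, and so few arrays limit the precision. To check the labels, S1pr2 was read first. The S1pr2 probe stood at -0.13 and -0.16 on the wild-type arrays and at 2.67 and 2.54 on those labelled S1pr2-/-, higher by 2.75 (SE 0.072, adjusted p = 0.332 from limma), which goes against the label. Where on the transcript this probe lies was not settled here, so every direction below follows the label as given.

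Of the 14 member probes, 10 had both arrays labelled S1pr2-/- below both wild-type ones, 0 had them above, and 4 overlapped. Both probes of Gch1 and both of Ass1 are among the 10, so probes of one gene are counted separately and are not independent. Over all probes tested, 41.7% did not overlap, 21.8% lower and 20.0% higher. In bulk samples such as these, fewer cells of a type and less RNA per cell cannot be told apart. Arg1 and Slc7a1 were lower at an unadjusted p under 0.05 from limma, 2 of 14 probes against 5.59% of all probes, and 0 were higher, against 3.99%, or 9.58% in either direction. By size, Arg1 and Nos2 were at least 2-fold lower, 2 of 14 against 1.24% of all probes. This count was 1 under quantile normalization, under normexp background correction, without wild-type replicate 2 and without S1pr2-/- replicate 1. After Benjamini-Hochberg adjustment over all probes limma called 0 members and 0 probes in all, so no member passed the test. All 14 probes were well above background on all 4 arrays, so none was lost to the filter. The median log2 difference was -0.22 over the 14 member probes and -0.00298 over all probes. The plot of values by array shows that this pattern was uneven: Arg1 and Nos2 lay far apart between arrays, whereas Gch1 and Oat hardly moved.

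**Figure D1:**
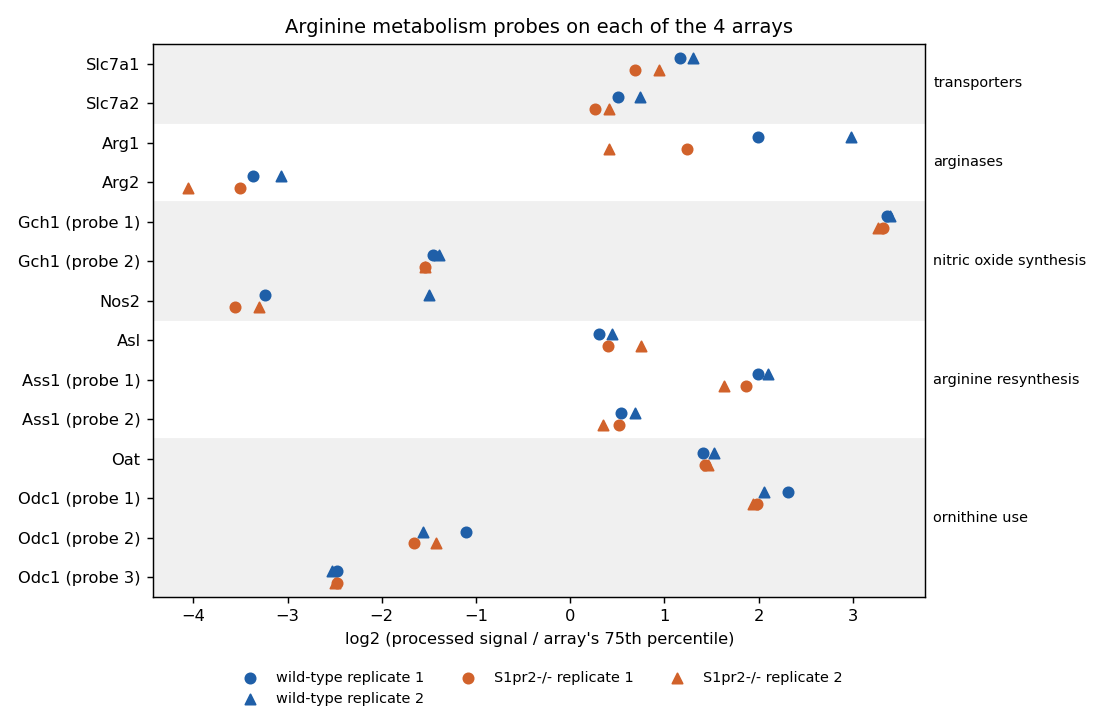
Each row is 1 member probe and each mark 1 array, in log2 units relative to the 75th percentile of that array (circles replicate 1, triangles replicate 2, blue wild-type, orange labelled S1pr2-/-). Arg1 spans 0.41 to 2.99 and Nos2 -3.56 to -1.50, while both Gch1 probes stay within a narrow range; rows are not comparable in level with each other.

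The transporters come first, since they bring arginine into the cell. Slc7a1, which encodes the widely expressed transporter CAT1, stood at 1.17 and 1.30 on the wild-type arrays and at 0.69 and 0.94 on the arrays labelled S1pr2-/-. Both of the latter were below both wild-type arrays. The difference was -0.42 (SE 0.125, 95% interval -0.80 to -0.04, unadjusted p = 0.038, adjusted p = 0.518 from limma), and it lay between -0.55 and -0.29 with any 1 array left out. Its unadjusted p from limma then stayed under 0.05 only without S1pr2-/- replicate 2. Slc7a2 encodes CAT2, the transporter that macrophages induce on activation. It stood at 0.51 and 0.74 on the wild-type arrays and at 0.26 and 0.41 on the arrays labelled S1pr2-/-. The groups did not overlap here either, but the difference of -0.29 (SE 0.120, adjusted p = 0.553 from limma) was little larger than the 0.23 between the wild-type arrays.

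Slc7a1 has 2 start sites in RefSeq, and the 250 bases before each are shown because it was the member transporter with the smaller p. Capitals mark matches to the 7 motifs searched on both strands, given on GRCm38.p6 and the minus strand of the chromosome, 5′ to 3′.
Slc7a1, upstream start, chr5:148399905-148400154: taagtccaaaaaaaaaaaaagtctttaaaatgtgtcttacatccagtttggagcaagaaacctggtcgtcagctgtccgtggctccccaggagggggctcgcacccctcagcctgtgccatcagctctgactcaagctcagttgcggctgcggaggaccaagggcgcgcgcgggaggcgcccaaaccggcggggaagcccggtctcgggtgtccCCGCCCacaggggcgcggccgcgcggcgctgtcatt
Slc7a1, downstream start, chr5:148392816-148393065: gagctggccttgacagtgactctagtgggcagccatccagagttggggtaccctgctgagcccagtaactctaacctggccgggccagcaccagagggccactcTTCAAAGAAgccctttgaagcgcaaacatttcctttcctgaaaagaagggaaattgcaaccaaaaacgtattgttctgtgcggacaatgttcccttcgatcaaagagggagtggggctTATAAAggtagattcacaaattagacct
The upstream window holds 1 GC box (GGGCGG, here on the opposite strand), ending 31 bases before the start. The downstream window instead holds a TATA box (TATAAA) from -28 to -23 and a GAS-type palindrome (TTCNNNGAA) from -146 to -138. Neither window holds the STAT6-type palindrome, whose half-sites lie 1 base farther apart, an E-box (CACGTG), a CRE (TGACGTCA) or the NF-kB motif searched. Among the 250-base windows of 32851 RefSeq promoters, 32.7% held the GC box, 12.4% the TATA box, 7.02% the GAS-type and 5.85% the STAT6-type palindrome. E-boxes were in 6.02%, CREs in 1.55% and the NF-kB motif in 0.14%. A match is a string of letters and does not show that a factor binds there, and the array does not say which start was used.

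The arginases held the largest member difference. Arg1, the cytosolic arginase, gave a signal of 3.99 and 7.92 times the 75th percentile on the wild-type arrays and of 2.36 and 1.33 times on the arrays labelled S1pr2-/-. On the log2 scale these were 2.00, 2.99, 1.24 and 0.41. Both arrays labelled S1pr2-/- were below both wild-type arrays, although arrays of one genotype also differed by up to 0.99. The mean was 3.17-fold lower, a log2 difference of -1.67 (SE 0.506, 95% interval -3.20 to -0.13, unadjusted p = 0.040, adjusted p = 0.518 from limma). Only 0.405% of the probes tested had a larger absolute log2 difference. With each array left out in turn the Arg1 difference lay between -2.16 and -1.17, always negative, and its unadjusted p from limma stayed under 0.05 only without wild-type replicate 1.

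Arg2, the mitochondrial arginase, stood at -3.36 and -3.07 on the wild-type arrays and at -3.50 and -4.05 on the arrays labelled S1pr2-/-. It ran the same way as Arg1 without overlap. The difference was smaller, at -0.56 (SE 0.249, adjusted p = 0.564 from limma), with an interval from -1.32 to 0.19. It was -0.29 without S1pr2-/- replicate 2 and -0.84 without S1pr2-/- replicate 1, the lowest and highest sizes with an array left out.

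Nos2, the enzyme that competes with arginase for arginine, stood at -3.24 and -1.50 on the wild-type arrays and at -3.56 and -3.30 on the arrays labelled S1pr2-/-. Wild-type replicate 2 was high, and wild-type replicate 1 was almost level with the arrays labelled S1pr2-/-. The fitted difference was -1.06 (SE 0.687, 95% interval -3.15 to 1.02, adjusted p = 0.644 from limma). It was -0.195 without wild-type replicate 2 and -1.93 without wild-type replicate 1, so its size rests on 1 array. The difference of Arg1 rested less on that array, since it was still -1.17 without it. Arg1 and Nos2, markers usually set against each other, were thus both lower in mean, and neither difference passed the adjusted test.

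**Figure D2:**
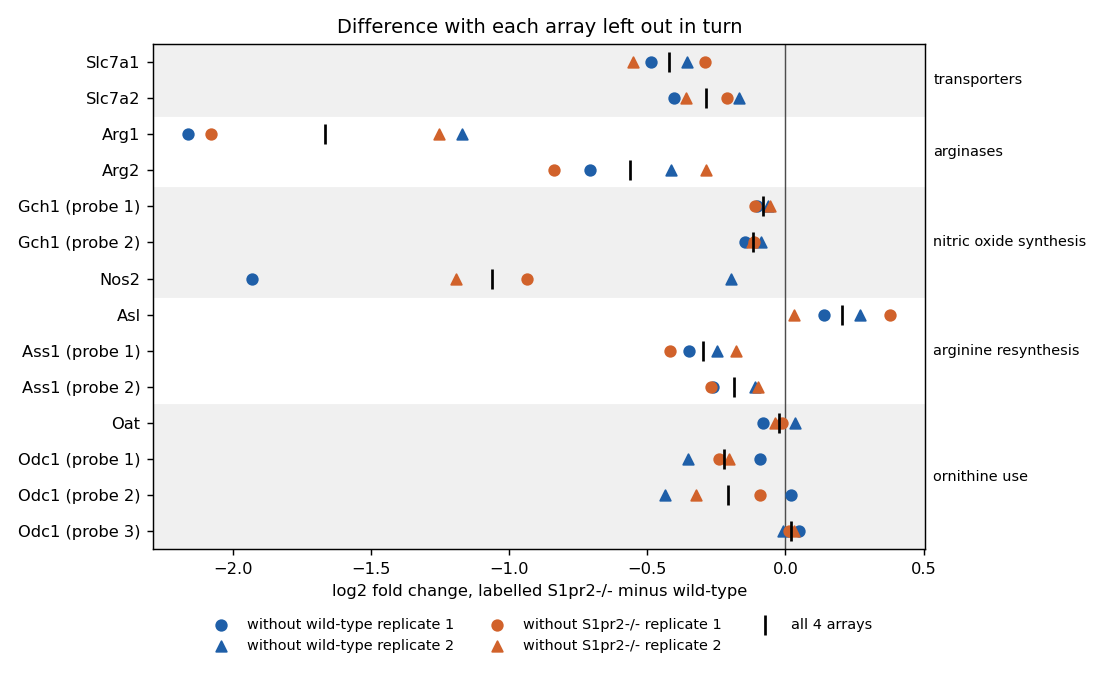
Each row is 1 member probe, the bar the log2 difference over all 4 arrays and each mark the difference with 1 array left out (color genotype, shape replicate of the array left out; labelled S1pr2-/- minus wild-type). Nos2 runs from -1.93 to -0.195, whereas Slc7a1 keeps between -0.55 and -0.29 and Arg1 between -2.16 and -1.17.

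Markers of other cells differed between the same arrays. Over all probes tested, 21.8% were below and 20.0% above without overlap. The summed signal of 6 eosinophil markers was 6.04 and 14.6 times the 75th percentile on the wild-type arrays. On the arrays labelled S1pr2-/- it was 2.35 and 3.68 times that percentile, with 6 of 6 markers below on both arrays. Log2 differences of the single markers ran from -5.58 to -0.79, with a median of -4.50, and the sum fell by less than that median. The neutrophil sum was 85.9 and 96.4 against 69.5 and 63.2, with 5 of 8 tested markers below and Ngp well above background on no array. The T cell sum was 18.7 and 20.5 against 16.7 and 12.2, with 6 of 9 below. By contrast the alveolar macrophage sum was 569 and 610 against 576 and 611, with 2 of 10 below, 3 of 10 above and a median log2 difference of 0.02. Sums of monocyte-derived macrophage markers overlapped, at 128 and 58.1 against 142 and 91.4. Of 9 such markers, 4 were above without overlap and 2 below, with a median log2 difference of 0.54. At an unadjusted p under 0.05 from limma, 1 of these markers was lower and 0 higher, against 5.59% and 3.99% of all probes. Arrays ranked for Arg1, Arg2, Ass1 and the Gch1 probe A_55_P2106175 as they did for the neutrophil and T cell sums. For Nos2, Slc7a1, Slc7a2 and the Gch1 probe A_52_P298002 they ranked as for the eosinophil sum. Asl, Odc1 and Oat followed neither order. The share of all probes in either order was not counted, so these matches tie no member to a cell type. Wild-type replicate 2 was the highest of the 4 arrays for the eosinophil, neutrophil and T cell sums and for every member except Asl and Odc1. How many of all probes tested were highest on that array was not counted, so this is not a trait particular to the members. The part of other cell types in the Arg1, Nos2 and Slc7a1 values was not tested.

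The remaining lists were read the same way, beside the same shares of all probes, 21.8% below and 20.0% above without overlap. The epithelial sum overlapped, at 31.2 and 34.2 against 25.0 and 40.8, although 7 of 10 of its markers were below. B cell markers overlapped in 6 of 6 cases. Fibroblast markers were dim, with wild-type sums of 0.270 and 0.265 against 0.669 and 0.363 on the arrays labelled S1pr2-/-, and 4 of 5 tested were above. Erythroid sums were 19.3 and 11.4 against 19.6 and 22.4, with 3 of 3 tested markers above.

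**Figure D3:**
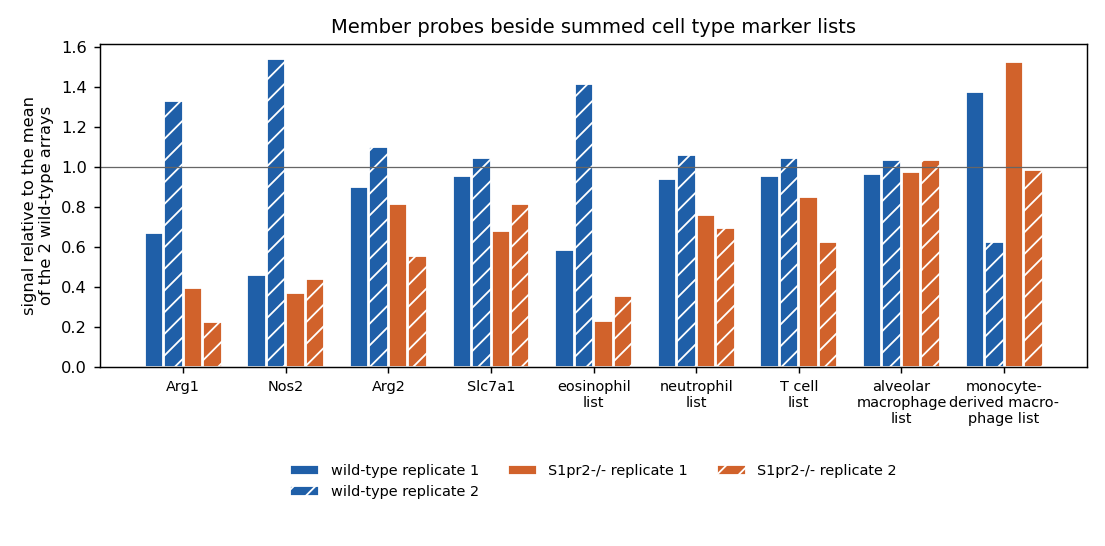
Bars give each array's signal relative to the mean of the 2 wild-type arrays (linear scale from 0, blue wild-type, orange labelled S1pr2-/-, hatched replicate 2), for 4 member probes and for the summed signals of 5 marker lists. All 4 member probes and the eosinophil, neutrophil and T cell lists are highest on wild-type replicate 2, and the share of all probes highest there was not counted. Arg1, Nos2 and the eosinophil list are low on both arrays labelled S1pr2-/-, whereas the alveolar macrophage list stays close to 1 on every array.

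Gch1, GTP cyclohydrolase, makes the first step toward tetrahydrobiopterin. Its probe A_55_P2106175 stood at 3.36 and 3.40 on the wild-type arrays and at 3.33 and 3.27 on the arrays labelled S1pr2-/-. The difference was -0.08 (SE 0.059, 95% interval -0.26 to 0.10, adjusted p = 0.672 from limma). The other probe, A_52_P298002, stood at -1.45 and -1.39 on the wild-type arrays and at -1.54 on both arrays labelled S1pr2-/-, a difference of -0.12 (SE 0.058, adjusted p = 0.587). Both probes had no overlap between genotypes, with intervals that reach no lower than -0.29, so a Gch1 difference as large as that of Arg1 lies outside them.

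Citrulline is recycled by Ass1 and Asl, and no probe of either had an unadjusted p under 0.05 from limma. Ass1, argininosuccinate synthase, joins citrulline to aspartate. Its probe A_55_P2004781 stood at 2.00 and 2.10 on the wild-type arrays and at 1.87 and 1.63 on the arrays labelled S1pr2-/-, a difference of -0.30 (SE 0.114, adjusted p = 0.541 from limma). The second Ass1 probe, A_55_P2143070, ran the same way without overlap, at 0.54 and 0.69 against 0.52 and 0.35, a difference of -0.18 (SE 0.104, adjusted p = 0.619). Asl, argininosuccinate lyase, releases arginine in the next step. It stood at 0.31 and 0.44 on the wild-type arrays and at 0.40 and 0.75 on the arrays labelled S1pr2-/-. These overlapped, and the difference was 0.21 (SE 0.155, 95% interval -0.27 to 0.68, adjusted p = 0.687).

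Of the enzymes that consume ornithine, Odc1 makes the polyamine putrescine and is the rate-limiting step of that route. The 3 Odc1 probes did not run together. A_55_P1995173 stood at 2.32 and 2.06 on the wild-type arrays and at 1.98 and 1.95 on the arrays labelled S1pr2-/-, lower without overlap by -0.22 (SE 0.116, adjusted p = 0.597 from limma). A_52_P436238 stood at -1.10 and -1.56 against -1.65 and -1.42 and overlapped, with a difference of -0.21 (SE 0.206). A_55_P1982818 stood at -2.48 and -2.53 against -2.47 and -2.49, a difference of 0.02 (SE 0.058, 95% interval -0.16 to 0.20). Oat, which carries ornithine toward proline and glutamate, stood at 1.42 and 1.53 on the wild-type arrays and at 1.44 and 1.46 on the arrays labelled S1pr2-/-. Both of the latter fell between the wild-type values, and the difference was -0.02 (SE 0.071, 95% interval -0.24 to 0.19, adjusted p = 0.922).

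**Figure D4:**
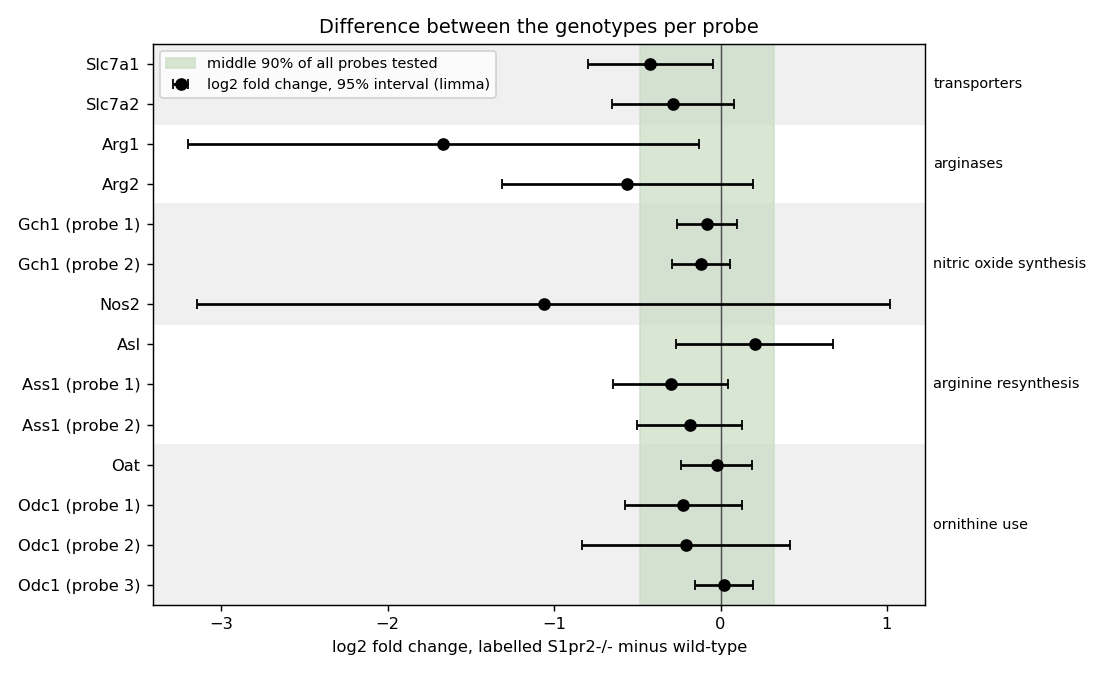
Each row is 1 member probe, the point its log2 difference (labelled S1pr2-/- minus wild-type) and the bar the 95% interval from limma, and the green band holds the middle 90% of all probes tested, -0.49 to 0.32. Arg1, Nos2 and Arg2 lie left of the band, the intervals of Arg1 and Slc7a1 end below 0, and the other rows have their points inside the band.

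Of the members, 5 of 10 were in the RefSeq promoter table used here: Slc7a1, Gch1, Ass1, Odc1 and Oat. The Ass1 window held an E-box from -36 to -31 and 1 GC box, the Odc1 window 4 GC boxes, and the Oat window none of the motifs. The window of Gch1 is shown with that of Gchfr, the gene for the protein that binds GTP cyclohydrolase and mediates its feedback inhibition by tetrahydrobiopterin, because these partners had unlike values on the arrays. The capitals mark motif matches as before, and each sequence is read 5′ to 3′ on the strand of its gene.
Gch1, minus strand, chr14:47189414-47189663: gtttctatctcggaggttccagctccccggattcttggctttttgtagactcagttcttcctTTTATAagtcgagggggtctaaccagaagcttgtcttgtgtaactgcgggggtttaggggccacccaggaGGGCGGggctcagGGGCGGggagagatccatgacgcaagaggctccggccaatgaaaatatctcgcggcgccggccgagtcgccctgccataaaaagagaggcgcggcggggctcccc
Gchfr, plus strand, chr2:119167538-119167787: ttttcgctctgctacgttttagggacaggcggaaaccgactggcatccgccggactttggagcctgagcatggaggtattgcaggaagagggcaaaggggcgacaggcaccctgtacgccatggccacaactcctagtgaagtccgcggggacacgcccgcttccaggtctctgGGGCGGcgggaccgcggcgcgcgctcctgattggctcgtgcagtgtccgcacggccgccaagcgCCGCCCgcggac
Each window held 2 GC boxes, and Gch1 also held TATAAA on the opposite strand from -188 to -183. The proximal GC box of Gchfr ended 7 bases before its start and that of Gch1 100 bases before.

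Gchfr was the pathway gene with the largest difference. It stood at -3.91 and -3.94 on the wild-type arrays and at -2.34 and -2.78 on the arrays labelled S1pr2-/-, so that both of the latter were higher. The difference was 1.37 (SE 0.181, 95% interval 0.82 to 1.92, unadjusted p = 0.003, adjusted p = 0.509 from limma), or 2.58-fold, and 0.180% of all probes were at least 2-fold higher, a count of 49 that ranged from 22 under normexp to 138 without S1pr2-/- replicate 1. Under the 16 other settings, arrays left out included, it lay between 1.03 and 1.59 with an unadjusted p under 0.05 in all 16, and its adjusted p lay between 0.342 and 0.682.

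The other genes of the pathway were read by their counts. Of 49 genes listed, 47 had a probe and 43 were tested, and Otc, Nags, Nos1 and Oaz3 were well above background on no array. In limma 2 were lower and 2 higher at an unadjusted p under 0.05, against 5.59% and 3.99% of all probes, with 0 called after adjustment. Without overlap, 8 were lower and 13 higher, against 21.8% and 20.0% of all probes, and the median log2 difference was 0.09. By list, the median was 0.12 over 8 genes of arginine and ornithine transport, 0.04 over 12 of nitric oxide and tetrahydrobiopterin, -0.03 over 10 of polyamine metabolism, 0.10 over 7 of proline and glutamate, and 0.22 over 4 of creatine synthesis and use. These lists share no gene with the members.

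The lower 2 were Slc7a6, a light chain of an arginine exchanger, and Ddah2, a relative of the enzyme that breaks down methylated arginines. Slc7a6 stood at -2.76 and -2.68 on the wild-type arrays and at -3.00 and -3.08 on the arrays labelled S1pr2-/-, a difference of -0.32 (SE 0.072, unadjusted p = 0.017, adjusted p = 0.509 from limma). Ddah2 stood at -2.16 and -2.20 against -2.51 and -2.51, a difference of -0.33 (SE 0.056, unadjusted p = 0.007, adjusted p = 0.509). Beside Gchfr, the higher one was Nos3, the endothelial synthase. Its brightest probe stood at -3.62 and -3.50 against -3.22 and -3.34, a difference of 0.28 (SE 0.085, unadjusted p = 0.039, adjusted p = 0.518). Its dimmer probe was not well above background on either wild-type array. Among the 16 other settings, by limma or the methods' t-test, the unadjusted p of Nos3 stayed under 0.05 in 5.

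**Figure D5:**
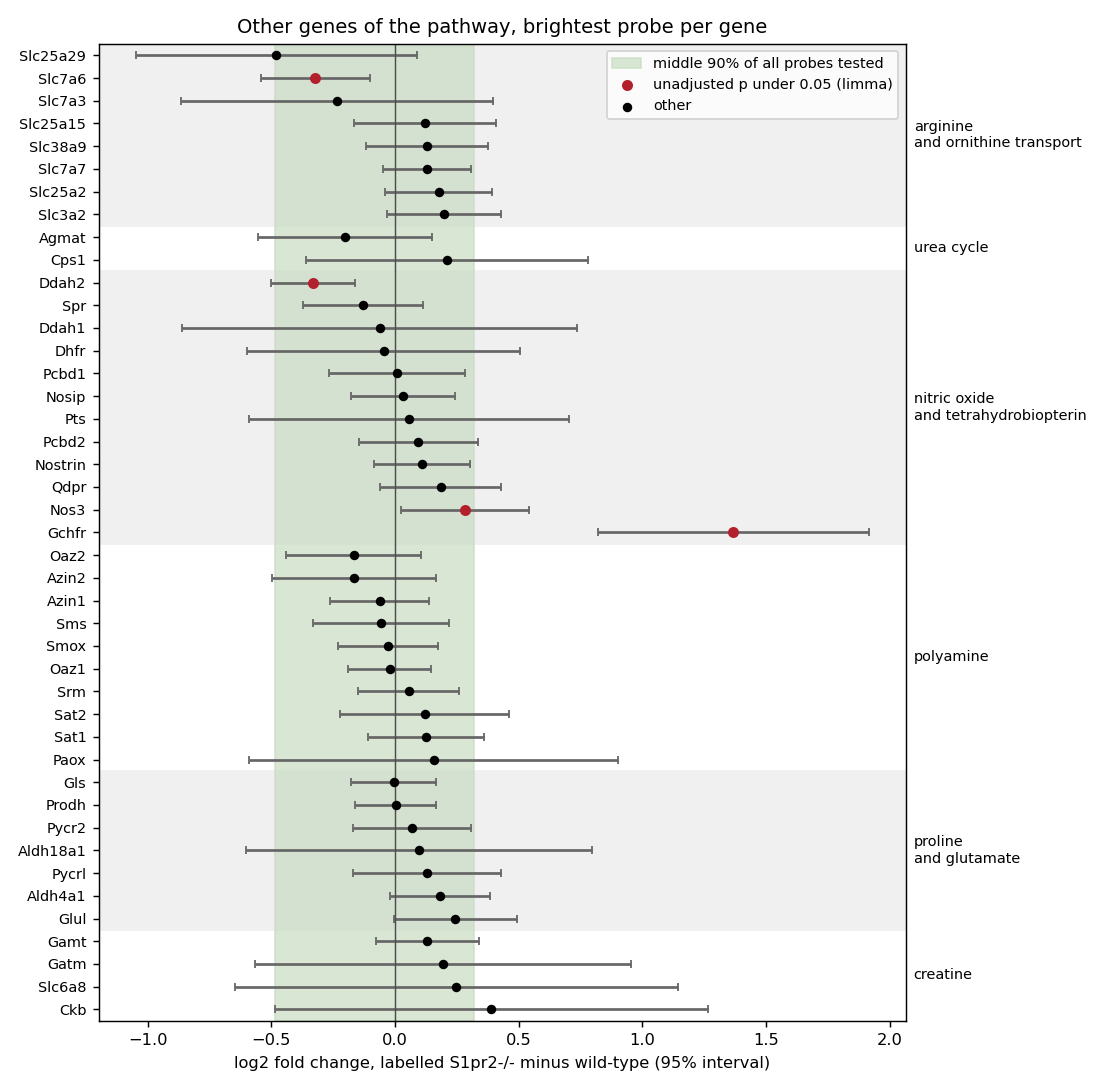
Each row is 1 gene of the 6 pathway lists by its brightest probe, the point its log2 difference (labelled S1pr2-/- minus wild-type), the bar the 95% interval from limma, and the green band the middle 90% of all probes tested. Gchfr at 1.37 is the only point beyond the band to the right by more than 1 unit, and red points mark the 4 genes with an unadjusted p under 0.05.

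Genes known to set Arg1 and Nos2 were read beside them. Il4, a cytokine that induces Arg1, stood at -1.42 and -0.14 on the wild-type arrays and at -4.43 and -4.26 on the arrays labelled S1pr2-/-, a difference of -3.57 (SE 0.505, unadjusted p = 0.004, adjusted p = 0.509 from limma). Il13, the related cytokine, stood at -4.57 and -2.78 on the wild-type arrays and at the floor of 0.01 on both arrays labelled S1pr2-/-. Irf1, a factor of the interferon response, stood at 3.27 and 3.56 against 2.99 and 2.94, a difference of -0.45 (SE 0.127, adjusted p = 0.516). Ifng itself, the interferon that induces Nos2, stood at -2.33 and -0.90 against -3.02 and -2.87, a difference of -1.33 (SE 0.566, adjusted p = 0.555), with wild-type replicate 2 again the highest array. Of the 12 regulators, 3 were lower and 0 higher at an unadjusted p under 0.05, against 5.59% and 3.99% of all probes, and their median log2 difference was -0.14. The second Irf1 probe lay at or near the floor on 3 of 4 arrays and overlapped.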

How the data were processed

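RNA of BALF cells was measured on 4 one-color arrays of 1 slide and 1 scan, so no batch could be tested. The authors deposited the scanner output, in which the intensity of each spot is background-corrected by Feature Extraction, version 11.0.1.1 per the file headers and 10.7.3.1 per the submitters' processing notes. Their own table of log2 values, also deposited, had column medians of -0.058 to 0.023. It lay within 0.01 of the log2 values computed here without a floor for 100% of 39359 probes, once centred on the wild-type arrays and shifted by a constant per array, and was an alternative only.

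Processed intensities were scaled to each array's 75th percentile across its non-control spots (2489 to 2817 intensity units), set to at least 0.01, and log2-transformed, without outlier-flagged spots (115 to 273 per array). The share of probes well above background was 67.6% to 72.1% per array. Probes were named through RefSeq accessions of GRCm38.p6, 69.6% of 39429. Probe coordinates are left out because they belong to another build. limma 3.58.1 in R 4.3.3 (lmFit, eBayes) was used with Benjamini-Hochberg adjustment, after a test on simulated data.

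Named were all member probes, S1pr2, and the pathway and regulator genes whose brightest probe had an unadjusted p under 0.05 or differed 1.5-fold without overlap. The members and lists were chosen with earlier results of these data known. Alternatives were other normalizations, background correction, floors, filters, variance models, tests, a replicate block and each array left out. Normexp used median signals, because the files used here hold no mean signal.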

Additional observations from a re-analysis of the deposited data

How the results depend on the processing

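Under every setting tried, 0 member probes and 0 pathway genes were called at an adjusted p under 0.05. The test was limma, except in the setting of the methods' t-test. The adjusted p of the member probes from these tests lay between 0.455 and 1. Over all probes, normexp background correction called 2 and the others 0. The 2 members lower at an unadjusted p under 0.05 were Arg1 and Slc7a1. The count became 0 with the 75th percentile taken over detected probes and 0 by the methods' t-test. Without the filter on dim probes it was 1, the Gch1 probe A_52_P298002 in place of Arg1 and Slc7a1. With an array left out the members under that threshold changed as well. They were Nos2 and Arg1 without wild-type replicate 1, and Odc1 A_55_P1995173 without wild-type replicate 2. Without S1pr2-/- replicate 1 they were Arg2 and Ass1 A_55_P2004781, and without S1pr2-/- replicate 2 Slc7a1. Of the single-probe values, 201 kept their sign and their side of that threshold, 13 lost it, 6 gained it and 4 reversed: Oat without wild-type replicate 2 (-0.0815 to 0.0337 with an array left out), Odc1 A_52_P436238 without wild-type replicate 1 (-0.435 to 0.0186), and Odc1 A_55_P1982818 without wild-type replicate 2 (-0.00795 to 0.0496) and under normexp (-0.00608). The causes were not tested.

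The 2 pathway genes higher at an unadjusted p became 5 with the percentile over detected probes, 5 with a trended variance, 1 in the authors' log2 table and 1 with the mean of all probes of a gene. With an array left out they were 1 to 2, and the 2 lower were 1 to 4. Over all probes, 1518 lower and 1083 higher became 1047 and 1750 under quantile normalization and 1436 and 1652 with the percentile over detected probes. With an array left out, 1044 to 1639 were lower and 627 to 1336 higher, the 627 being without wild-type replicate 2. Where an array was left out, its lone partner was assumed to vary like the others.

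The labels do not say whether same-numbered arrays were paired (correlation of deviations 0.187 over 2 pairs), and the main fit took them as unpaired. With the replicate number as a replicate block, 2 members were lower at an unadjusted p, Slc7a1 and Slc7a2 in place of Slc7a1 and Arg1, and 1456 probes were lower and 975 higher.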
